A study of Homo sapiens with 18 samples.

Results

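S100A9, S100A8 and S100A12 were followed through 18 RNA sequencing libraries of U937 and THP-1 cells, established human cancer lines of monocytic type. These 3 of the 18670 genes in the count table were taken by name: they encode the protein pair called calprotectin and its close relative, and their rows were found by Ensembl identifier. The 6 groups held 3 libraries each. U937 cells carried a lentiviral empty vector (genotype given as WT) or the lentiviral knockdown vector shS100A9. THP-1 cells carried a lentiviral empty vector or a vector for S100A9 overexpression (OE-S100A9), and cells of both kinds were also sequenced after 36 h with Adavivint at 1 µM. All cells had been selected with puromycin at 2 µg/mL, begun 48 h after transduction and kept for at least 24 h, so the controls share the virus and the selection. The labels name neither the promoter of the vectors nor a vehicle for the untreated cells, and no label says that the replicates were separate cultures, so the p-values reflect sample-to-sample spread that may be technical alone. Adavivint (lorecivivint) is known to block the kinases CLK2 and DYRK1A and to lower Wnt signalling.

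S100A8 and S100A9 are small calcium-binding proteins of the EF-hand family that join into a heterodimer, calprotectin, which neutrophils and monocytes hold in large amounts in the cytosol. Outside the cell calprotectin binds zinc and manganese and acts as a danger signal through the receptors TLR4 and RAGE. Inside the cell it carries arachidonic acid and helps to assemble the NADPH oxidase. S100A12, also called calgranulin C, is a related ligand of RAGE and is found mainly in neutrophils and monocytes.

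The 3 genes are neighbours on chromosome 1. In the GENCODE 29 annotation (GRCh38), S100A9 (ENSG00000163220) lies at chr1:153357854-153361027 on the plus strand, S100A12 (ENSG00000163221) at chr1:153373706-153375649 and S100A8 (ENSG00000143546) at chr1:153390032-153391188, both on the minus strand. The gap between S100A9 and S100A12 is 12.7 kb and that between S100A12 and S100A8 is 14.4 kb. Each gene has a short messenger RNA of 3 exons, with 577 bases for S100A9, 523 bases for the principal S100A8 transcript and 518 bases for S100A12. The 250 bases before an annotated start site of each gene are printed, since transcription of the endogenous gene can begin at that site. Which start site these cells use was not measured. The sequences are from RefSeq (GRCh38.p14), each on its gene's own strand. Capitals mark letters found by a search on both strands for 6 motifs. These were the C/EBP-type letters TTNNGNAA, the PU.1-type letters GAGGAA, the AP-1 letters TGANTCA, the STAT letters TTCNNNGAA, the E-box CACGTG and the TATA box TATAAA, and none of the marked matches overlaps another.
S100A9, chr1:153357604-153357853, plus strand: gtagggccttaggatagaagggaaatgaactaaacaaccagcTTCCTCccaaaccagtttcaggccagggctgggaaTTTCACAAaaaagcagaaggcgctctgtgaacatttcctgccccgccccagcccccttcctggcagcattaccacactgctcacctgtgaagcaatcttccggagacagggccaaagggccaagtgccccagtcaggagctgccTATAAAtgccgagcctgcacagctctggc
S100A8, chr1:153391189-153391438, minus strand: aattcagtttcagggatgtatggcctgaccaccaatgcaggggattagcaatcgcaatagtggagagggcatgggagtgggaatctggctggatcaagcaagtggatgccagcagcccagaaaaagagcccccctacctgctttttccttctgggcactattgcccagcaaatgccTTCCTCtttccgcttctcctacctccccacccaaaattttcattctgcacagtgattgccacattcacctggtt
S100A12, chr1:153375622-153375871, minus strand: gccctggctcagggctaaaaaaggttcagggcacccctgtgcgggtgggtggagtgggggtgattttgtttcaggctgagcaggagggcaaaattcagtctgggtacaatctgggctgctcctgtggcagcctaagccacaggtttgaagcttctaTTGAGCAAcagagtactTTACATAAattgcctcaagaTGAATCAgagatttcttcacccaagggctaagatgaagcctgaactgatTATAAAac

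S100A8 has 3 start sites in the RefSeq table, at 153391188, 153391073 and 153390976, and the stretch above lies before the first of them. TATAAA begins at -29 from the start of S100A9 and at -29 from the S100A8 start at 153391073, where its surroundings (chr1:153391085-153391114, minus strand, capitals for TATAAA) read as follows.
S100A8, before the start at 153391073: aagcctaaccgcTATAAAaaggagctgcct

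In the S100A12 stretch the same letters begin at -8. TATAAA occurred in 11.5% of the 35116 RefSeq promoter windows of 300 bases (250 before and 50 after a start). C/EBP-type letters were found in the windows of all 3 genes, at -173 and 24 bases from the start of S100A9, at -117 and 19 from the S100A8 start at 153391073, and at -94 and -77 in S100A12. They occur in 36.8% of all windows. PU.1-type letters lie at -208 in S100A9 and at -74 from the first S100A8 start (27.9% of all windows), and AP-1 letters at -57 in S100A12 (7.71%). STAT letters (7.66% of all windows) and the E-box (7.26%) have no match in these windows. A match is a description of the letters and no measure of binding.

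The libraries held 38.4 to 84.4 M counts. No pair of replicates agreed within sampling noise (chi-square per degree of freedom from 7.18 to 225), and in U937 cells empty vector 2 and shS100A9 3 stood apart from the other libraries of their groups. Myeloid markers were present: all 16 genes of the monocytic list had counts in every group, with summed levels of 857 to 1500 CPM (counts per M of a library total scaled by TMM, with M for mega), although CD14 was at 0.363 CPM in THP-1 empty vector cells and at 0.121 CPM in U937 empty vector cells. A gene was said to have changed at an adjusted p below 0.05 in the quasi-likelihood test of edgeR, adjusted over all genes tested. In bulk RNA, fewer cells with a transcript and less transcript per cell cannot be told apart. The counts also do not tell transcripts of the transduced S100A9 copy from those of the endogenous gene.

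S100A9 was the most abundant of the 3 genes in every group but U937 shS100A9, and it moved with its labels. In U937 cells with the empty vector it had 281, 231 and 342 counts, or 6.83, 4.49 and 7.10 CPM. The shS100A9 libraries had 12, 26 and 5 counts, or 0.215, 0.400 and 0.0595 CPM. The lowest control library was above the highest knockdown library by more than the spread within either group. The group means were 6.14 ± 1.44 and 0.225 ± 0.170 CPM (SD, n = 3 each), a fall of 27.6-fold.

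The log2 fold change of S100A9 was -4.79 (SE 0.62, 95% interval -6.25 to -3.33, edgeR adjusted p = 0.0205). In this comparison 1.77% of the 13016 genes tested were called, 201 of them lower, and 33 of these had a larger fall than S100A9. The call was lost without empty vector 1 (adjusted p = 0.0947), empty vector 3 (0.104), shS100A9 1 (0.136) or shS100A9 2 (0.0526). A fit without both libraries that stood apart, chosen after seeing the data, gave a log2 fold change of -4.47 (edgeR adjusted p = 5.59e-05). Leaving these libraries out removes much of the spread and many more genes are called, so this p-value is no separate support for the call.

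S100A8, the partner of S100A9, was the scarcer gene in U937 empty vector cells, while in shS100A9 cells each gene had 43 counts over the group. Empty vector libraries had 23, 24 and 36 counts, or 0.559, 0.466 and 0.747 CPM. The shS100A9 libraries had 19, 19 and 5 counts, or 0.340, 0.292 and 0.0595 CPM. The groups did not overlap, and the mean was 0.591 ± 0.143 against 0.231 ± 0.150 CPM (SD, n = 3 each). With a log2 fold change of -1.38 (SE 0.60, 95% interval -2.81 to 0.05) S100A8 did not pass in edgeR (adjusted p = 0.371). In the same fit without both libraries that stood apart, chosen after seeing the data, the S100A8 change was -1.05 (adjusted p = 0.0588). The library with the fewest S100A8 counts, shS100A9 3, is one that stood apart and also had the fewest S100A9 counts.

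S100A9 was higher in every THP-1 library with the overexpression vector than in any with the empty vector. Empty vector cells had 563, 194 and 305 counts, or 9.38, 3.85 and 5.91 CPM, and OE-S100A9 cells had 1496, 2444 and 1659 counts, or 29.1, 28.8 and 26.3 CPM. The control libraries were spread out and the overexpressing ones lay close together. Means of 6.38 ± 2.79 and 28.1 ± 1.57 CPM (SD, n = 3 each) gave a rise of 4.36-fold. In log2 terms this was 2.13 (SE 0.20, 95% interval 1.69 to 2.56, edgeR adjusted p = 3.2e-05). Of the 15403 genes tested 28.0% were called, 2297 of them higher, and 55 of these had a larger rise than S100A9.

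S100A8 did not rise with its partner. Empty vector libraries had 65, 40 and 30 counts, or 1.08, 0.794 and 0.581 CPM, and OE-S100A9 libraries had 14, 53 and 19 counts, or 0.272, 0.625 and 0.301 CPM. The second overexpressing library lay above the lowest control, so the groups overlapped. The mean fell from 0.819 ± 0.252 to 0.400 ± 0.196 CPM (SD, n = 3 each) and the log2 fold change was -0.99 (SE 0.30, 95% interval -1.63 to -0.34, edgeR adjusted p = 0.0256). The call was lost in a fit of only the 6 libraries compared (log2 fold change -1.02, adjusted p = 0.0721), and without empty vector 1 (log2 fold change -0.72, adjusted p = 0.126), OE-S100A9 1 (adjusted p = 0.081) or OE-S100A9 3 (adjusted p = 0.1).

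**Figure D1:**
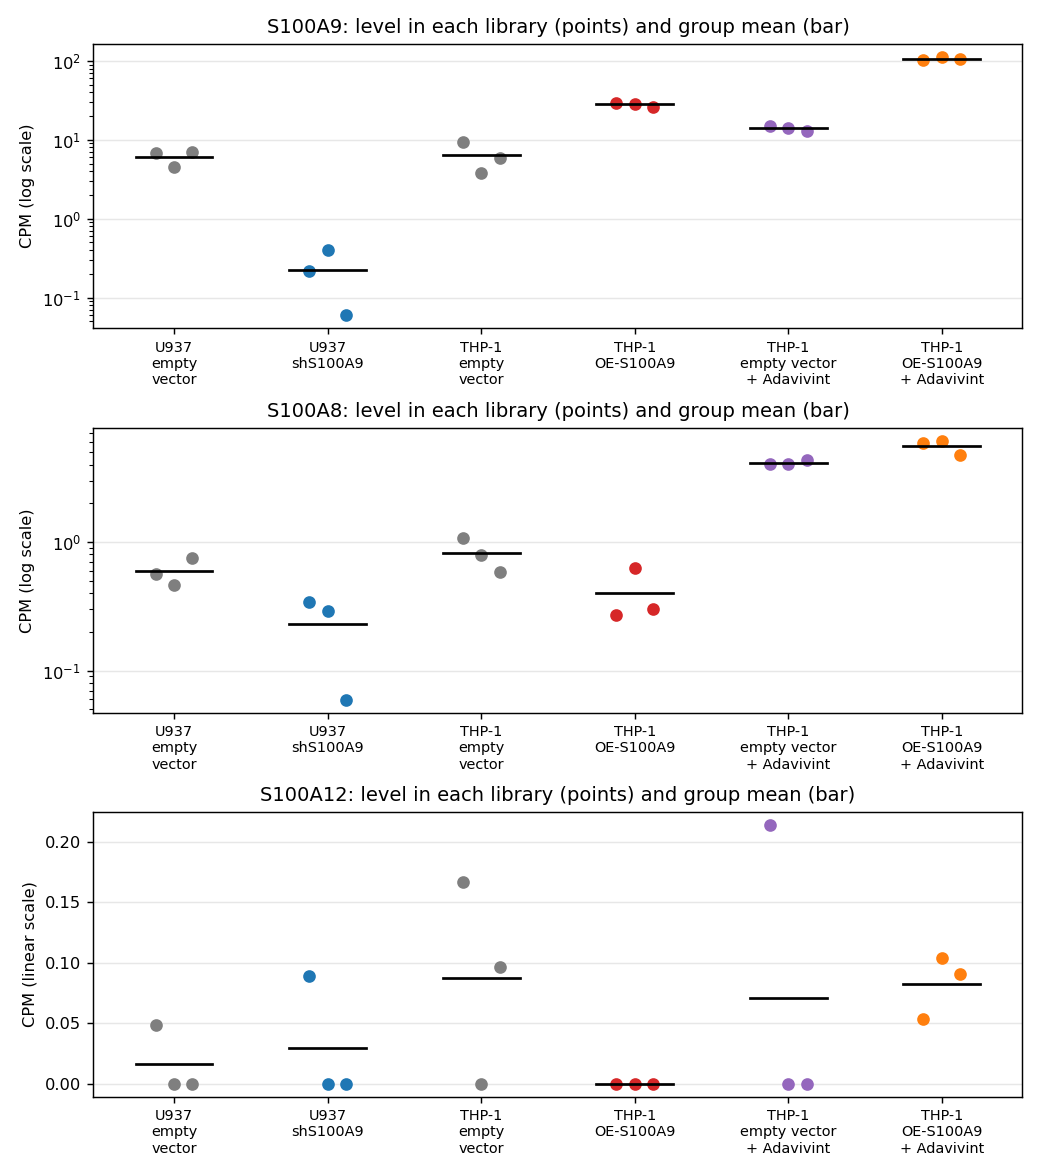
Level of S100A9, S100A8 and S100A12 in each of the 18 libraries (points, n = 3 per group) with the group mean (bar), in CPM, on a log scale for S100A9 and S100A8 and a linear scale for S100A12. S100A9 is lowest in U937 shS100A9 and highest in THP-1 OE-S100A9 with Adavivint (102 to 113 CPM), S100A8 is above 4 CPM in the 6 libraries with Adavivint and not elsewhere, and S100A12 has no count in OE-S100A9 without the drug.

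Adavivint raised the CPM of both partners with either vector. With the empty vector, S100A9 had 632, 630 and 580 counts under the drug, or 15.0, 14.0 and 12.8 CPM (13.9 ± 1.13, SD, n = 3). All 3 values were above the untreated ones. The log2 fold change was 1.11 (SE 0.21, 95% interval 0.67 to 1.56, edgeR adjusted p = 0.000174), a rise of 2.16-fold. The drug changed 85.3% of the 15403 genes, so being called sets neither member apart. The change of S100A9 was higher than that of 75.5% of all genes tested. CPM are shares of a library, and absolute amounts per cell were not measured. With TMM, DESeq2 size factors and library totals the median log2 fold change of all genes was 0.06, 0.10 and 0.05 with the empty vector. With OE-S100A9 it was 0.04, 0.10 and -0.03.

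S100A8 rose more than S100A9 in these cells. It had 169, 183 and 196 counts under the drug, or 4.01, 4.07 and 4.31 CPM (4.13 ± 0.158, SD, n = 3), far above the untreated libraries. The rise was 5.01-fold (log2 fold change 2.32, SE 0.27, 95% interval 1.74 to 2.91, edgeR adjusted p = 1.79e-06), higher than that of 86.9% of genes.

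With the overexpression vector the same drug gave the highest S100A9 level of the series. The libraries had 3846, 4336 and 4631 counts, or 102, 113 and 105 CPM (107 ± 5.15, SD, n = 3), and the log2 fold change from untreated OE-S100A9 cells was 1.93 (SE 0.19, 95% interval 1.52 to 2.33, edgeR adjusted p = 2.48e-07). S100A8 had 221, 235 and 209 counts, or 5.89, 6.10 and 4.75 CPM (5.58 ± 0.726, SD, n = 3). Its rise was 13.4-fold (log2 fold change 3.74, SE 0.29, 95% interval 3.12 to 4.37, edgeR adjusted p = 1.84e-08). In this comparison 84.7% of genes were called, and the changes of S100A9 and S100A8 were higher than those of 85% and 91.8% of genes.

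The drug effect on S100A8 differed between the vectors. The interaction, that is the drug effect with OE-S100A9 minus that with the empty vector, was 1.42 for S100A8 on the log2 scale (SE 0.39, 95% interval 0.59 to 2.25, edgeR adjusted p = 0.0221). For S100A9 it was 0.81 (SE 0.28, 95% interval 0.22 to 1.41) and missed the threshold (adjusted p = 0.0548). An interaction was called for 19.3% of the 15403 genes. Depending on the scaling of the libraries, 41.7% of the called interactions were positive with TMM and 28.8% with library totals. The S100A8 call was lost without empty vector 1 (adjusted p = 0.0563), OE-S100A9 3 (0.0599) or OE-S100A9 with Adavivint 2 (0.0515). The mean S100A8 level went from 0.819 to 4.13 CPM with the empty vector, an increment of 3.31 CPM. With OE-S100A9 it went from 0.400 to 5.58 CPM, an increment of 5.18 CPM. The part of the starting level in the interaction was not tested.

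Under the drug, the overexpression vector raised S100A9 7.67-fold (log2 fold change 2.94, SE 0.20, 95% interval 2.51 to 3.37, edgeR adjusted p = 1.8e-05). This comparison called 8.50% of the genes, 569 of them higher, and 3 of these rose more than S100A9. In CPM the vector added 21.7 to the mean S100A9 level without the drug and 92.9 with it. The S100A8 libraries of the 2 drug-treated groups did not overlap, but the log2 fold change of 0.43 (SE 0.25, 95% interval -0.10 to 0.96) did not pass in edgeR (adjusted p = 0.317). The share of called genes that were higher was 43.5% with TMM and 20.2% with library totals.

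**Figure D2:**
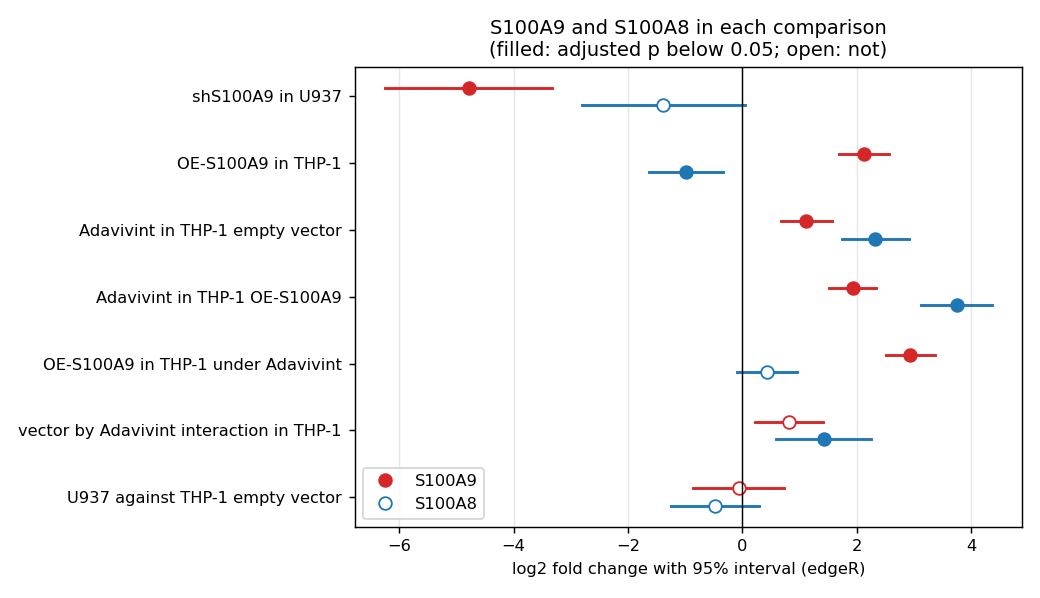
Log2 fold change of S100A9 and S100A8 (points) with its 95% interval (lines) in each comparison, from edgeR. Filled points have an adjusted p below 0.05: S100A9 in 5 comparisons and S100A8 in 4, with S100A8 below 0 in OE-S100A9 cells (-0.99) where S100A9 is above (2.13).

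The lines did not differ detectably in the untreated controls. S100A9 was at 6.14 CPM in U937 and 6.38 CPM in THP-1 empty vector cells (log2 difference -0.07, SE 0.34, 95% interval -0.86 to 0.73, edgeR adjusted p = 0.909). S100A8 was at 0.591 and 0.819 CPM (log2 difference -0.48, SE 0.33, 95% interval -1.25 to 0.29, edgeR adjusted p = 0.326). The libraries of the lines overlapped for both genes, while 26.2% of the 13695 genes tested were called. Line and any difference in virus or library preparation between the lines cannot be told apart. For the CPM, TMM was run within each line, so an order across lines is approximate, whereas the log2 differences come from a joint fit. Ordered by mean level, S100A9 went from U937 shS100A9 through the empty vector groups, whose ranges overlap, to empty vector with Adavivint, OE-S100A9, and OE-S100A9 with Adavivint. The order for S100A8 was U937 shS100A9, OE-S100A9, U937 empty vector, THP-1 empty vector, empty vector with Adavivint, and OE-S100A9 with Adavivint. Neighbours among the first 4 of these groups overlap in range.

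S100A12 was at the limit of detection in all groups. U937 empty vector libraries had 2, 0 and 0 counts and shS100A9 libraries 5, 0 and 0. THP-1 empty vector libraries had 10, 0 and 5 counts, OE-S100A9 libraries 0, 0 and 0, empty vector with Adavivint 9, 0 and 0, and OE-S100A9 with Adavivint 2, 4 and 4. In 4 of the groups a single library held most or all of the counts, all 3 libraries were at 0 in untreated OE-S100A9, and none was at 0 in OE-S100A9 with the drug.

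Over the group, 15 counts in THP-1 empty vector cells (exact 95% Poisson interval 8.4 to 24.7, counting error alone) make 0.0926 CPM. Of these counts 10 came from 1 library. OE-S100A9 cells with the drug had 10 counts (4.8 to 18.4), or 0.0833 CPM. The 0 counts of untreated OE-S100A9 cells (0 to 3.69 on the same interval) allow a level of up to 0.0185 CPM. The chosen floor of 3 counts over this group is 0.0151 CPM. The edgeR filter left S100A12 out of every comparison. Without a filter, edgeR gave an adjusted p of 0.0831 for OE-S100A9 against the empty vector and of 0.0411 for the drug in OE-S100A9 cells, and 0.162 or more in the other comparisons. An exact permutation test over the 12 THP-1 libraries found a drug difference within vectors of 0.0331 CPM (two-sided p = 0.475) and a vector difference within drug states of -0.0382 CPM (p = 0.4), where 0.005 is the smallest p possible.

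The balance of the partners shifted with each manipulation. The U937 empty vector libraries had 12.2, 9.63 and 9.50 S100A9 counts for each S100A8 count, and the shS100A9 libraries 0.632, 1.37 and 1.00. In THP-1 cells the ratio was 8.66, 4.85 and 10.2 with the empty vector and 107, 46.1 and 87.3 with OE-S100A9. Under Adavivint it was 3.74, 3.44 and 2.96 with the empty vector and 17.4, 18.4 and 22.2 with OE-S100A9.

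In none of the 5 comparisons of groups did the ratios overlap. The knockdown brought the partners to a pooled ratio of 1.0 and the overexpression vector to 65.1, against 10.3 and 7.87 in the controls. Per base of the principal transcripts the pooled ratios were 9.33 and 0.906 in U937 cells, and 7.13, 59.0, 3.05 and 17.5 in THP-1 cells (empty vector, OE-S100A9, and the same with Adavivint). Per base of the exon union, which is longer for S100A8, they were 17.9 and 1.74 in U937 cells and 13.7, 113.5, 5.86 and 33.6 in THP-1 cells, so the length used decides which partner is higher in shS100A9 cells. With 3 libraries against 3, the exact permutation test cannot go below p = 0.1, which each of the 5 pairs reached. Over the 12 THP-1 libraries the drug moved the balance toward S100A8 2.92-fold within vectors (exact permutation, two-sided p = 0.005). The vector moved it toward S100A9 7.52-fold within drug states (exact permutation, two-sided p = 0.005), and 0.005 is the smallest p possible. OE-S100A9 and shS100A9 were made to change S100A9, so for these vectors the direction of the shift was set in advance. Their p-values are no separate evidence on the balance.

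**Figure D3:**
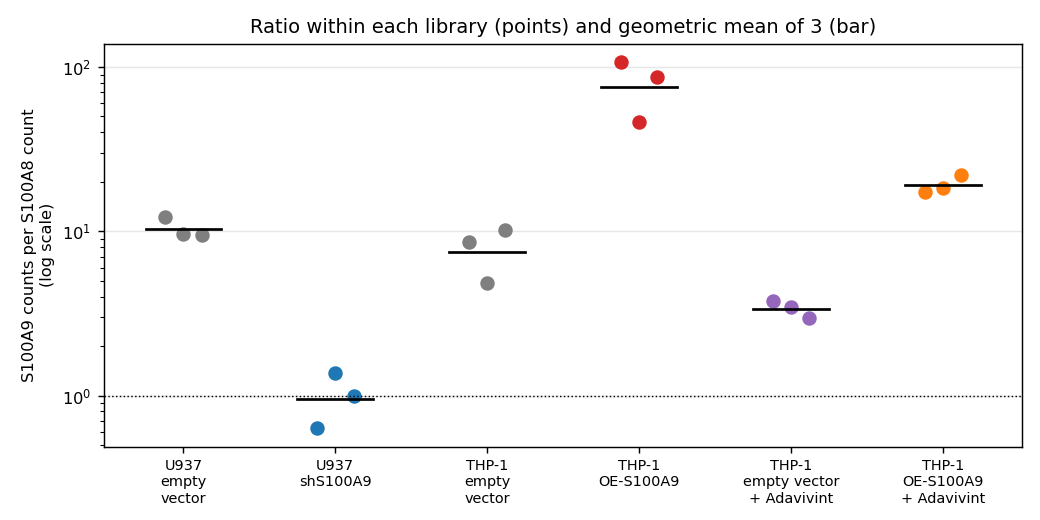
S100A9 counts per S100A8 count in each library (points, log scale) with the geometric mean of the 3 libraries (bar); the dotted line marks equal counts. The U937 shS100A9 libraries lie at 0.632 to 1.37, the OE-S100A9 libraries at 46.1 to 107, and both Adavivint groups lie below the untreated group with the same vector.

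Among 20 S100 genes of the table, compared per kb of exon, S100A9 ranked 6th in both control groups (10.6 CPM per kb in U937 and 11.1 in THP-1). S100A4, S100A11 and S100A6, which many cell types express, were higher in THP-1 empty vector cells at 222.6, 193.6 and 106.5 CPM per kb, followed by S100P at 42.5 and S100A10 at 14.7. S100A9 ranked 9th in shS100A9 cells, 4th in OE-S100A9 cells (48.7 CPM per kb), 5th in drug-treated empty vector cells (24.2) and 2nd in drug-treated OE-S100A9 cells (185), below S100A11 alone. S100A8 ranked 10th in the THP-1 controls and 7th under the drug with either vector, and S100A12 between 13th and 17th.

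**Figure D4:**
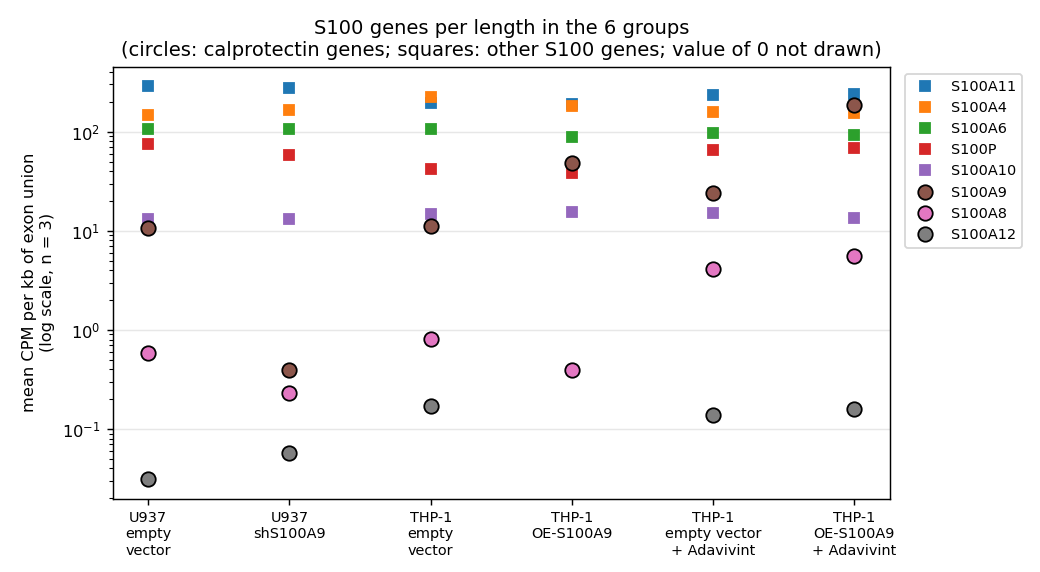
Mean level of 8 S100 genes per kb of exon union in the 6 groups (n = 3 each, log scale), with the calprotectin genes as outlined circles and 5 other S100 genes as squares. S100A9 moves from 11.1 CPM per kb in THP-1 empty vector cells to 185 in drug-treated OE-S100A9 cells, while S100A11 lies between 191.4 and 287.7; S100A12 has no point in OE-S100A9 because it has no count there.

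Of the 17 other S100 genes, 10 were tested in U937 cells and none was called after the knockdown (edgeR), where 1.77% of all genes were. In THP-1 cells 11 were tested. With OE-S100A9, 3 of them were called, a share near the 28.0% of all genes: S100A13 rose (log2 fold change 0.59, SE 0.11, adjusted p = 0.00251), and S100A4 (-0.30, SE 0.06, adjusted p = 0.00193) and S100A6 (-0.25, SE 0.06, adjusted p = 0.00616) fell. S100A13 overlaps S100A1 on the opposite strand, so with an unknown strand setting the values of both are uncertain. S100A4 overlaps S100A3, and how reads shared by overlapping genes were counted is not known. Under Adavivint in empty vector cells 3 rose (S100A14, S100P and S100A11) and 4 fell (S100A1, S100A2, S100A4 and S100A6), 7 of 11 against 85.3% of all genes. S100P rose (0.61, SE 0.08, adjusted p = 9.57e-06), S100A4 fell (-0.51, SE 0.06, adjusted p = 9.09e-07), and S100A14, an epithelial S100 gene, went from no count in any untreated empty vector library to 153 counts over the group, at least 62.4-fold higher.

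Genes that calprotectin is known to act through were followed next, from lists chosen with earlier results of these data known. Of the receptors and sensors, 8 of 10 were tested in U937 cells and none was called after the knockdown, with a median log2 fold change of -0.10 against 0.01 over all genes, of which 1.77% were called. With OE-S100A9, 1 of 10 rose and 1 fell, against 28.0% of all genes called. AGER, which encodes RAGE, went from 6.43 ± 1.21 to 8.49 ± 0.377 CPM (SD, n = 3 each; log2 fold change 0.40, SE 0.12, edgeR adjusted p = 0.0218), and BSG, the receptor basigin, changed by -0.22 (SE 0.05, adjusted p = 0.00964). The AGER call was lost without empty vector 1 (adjusted p = 0.0658), OE-S100A9 2 (0.0678) or OE-S100A9 3 (0.0676).

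Under Adavivint in empty vector cells 4 of the 10 receptors rose (CD14, AGER, NPTN and MCAM) and 5 fell (TLR4, CD36, BSG, ALCAM and CD33), a share near the 85.3% of all genes called. CD14, the co-receptor of TLR4, rose from 0.363 ± 0.171 to 20.9 ± 1.13 CPM (log2 fold change 5.87, SE 0.23, edgeR adjusted p = 1.13e-11), whereas TLR4 itself fell from 74.1 ± 3.40 to 24.8 ± 1.77 CPM (log2 fold change -1.58, SE 0.07, adjusted p = 3.85e-11). CD33, a lectin that binds S100A9, fell from 83.9 to 22.1 CPM (log2 fold change -1.93), and ALCAM, an adhesion receptor, fell from 70.0 to 16.0 CPM (-2.13). In OE-S100A9 cells the drug changed CD14 by 5.95, TLR4 by -1.32, CD33 by -1.97 and ALCAM by -2.21 on the log2 scale, each past the test. With the drug present, OE-S100A9 changed none of the 10 (edgeR), where 8.50% of all genes were called.

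The signalling genes between TLR4 and NF-kB were all tested in every comparison. IRAK1, a kinase of this pathway, was the 1 of 8 called in U937 cells (1.77% of all genes were), falling from 286.7 ± 3.77 to 132 ± 25.3 CPM (log2 fold change -1.12, SE 0.15, edgeR adjusted p = 0.0242). The IRAK1 call was lost without empty vector 1 (0.122), empty vector 3 (0.123), shS100A9 1 (0.134) or shS100A9 2 (0.065), all adjusted p. With OE-S100A9, 2 of 8 rose and 4 fell (IRAK1, RELA, MYD88 and TIRAP), against 28.0% of all genes called. NFKBIA, the inhibitor of NF-kB and one of its targets, rose from 41.4 ± 6.98 to 65.5 ± 1.31 CPM (0.66, SE 0.09, adjusted p = 0.000437), IRAK4 rose by 0.27, and IRAK1 and RELA, a subunit of NF-kB, changed by -0.29 and -0.28.

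Adavivint in empty vector cells raised 6 of the 8 signalling genes and lowered 1, a share near the 85.3% of all genes called, with a median log2 fold change of 0.67 against 0.06 over all genes tested. TRAF6, the ubiquitin ligase of the pathway, rose from 18.3 ± 1.28 to 98.1 ± 3.21 CPM (log2 fold change 2.43, SE 0.06, edgeR adjusted p = 3.4e-13). RELA rose by 0.93, NFKBIA by 0.94 and the adaptor TIRAP by 0.72. In OE-S100A9 cells 5 rose, among them TRAF6 by 2.38 and RELA by 1.25, and 2 fell, where 84.7% of all genes were called.

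Of the transcription factors reported to bind or control S100A8 and S100A9, none of 8 tested was called after the knockdown (median log2 fold change -0.03) and 2 of 9 fell with OE-S100A9. Over all genes 1.77% and 28.0% were called in these comparisons. CEBPA, a factor of myeloid differentiation, fell in OE-S100A9 cells from 216.3 ± 13.4 to 177 ± 2.56 CPM (log2 fold change -0.29, SE 0.05, edgeR adjusted p = 0.00162). CEBPE, a factor of late granulocyte maturation, fell from 9.09 ± 1.34 to 7.16 ± 0.841 CPM (-0.35, SE 0.12, adjusted p = 0.0376), a call lost without empty vector 1 (adjusted p = 0.165), empty vector 2 (0.0727), OE-S100A9 2 (0.125) or OE-S100A9 3 (0.144). The other 7 did not pass the test.

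Under Adavivint 4 of the 9 factors rose (CEBPE, BACH1, STAT3 and SPI1) and 2 fell (CEBPB and KLF4) with the empty vector, and 5 rose and 1 fell with OE-S100A9. These shares lie below the 85.3% and 84.7% of all genes called. CEBPE rose to 18.5 ± 1.63 CPM with the empty vector (log2 fold change 1.02, SE 0.11, edgeR adjusted p = 1.05e-06) and to 24.3 ± 1.20 CPM with OE-S100A9 (1.76, SE 0.12, adjusted p = 2.91e-09). CEBPB, an activator induced in inflammation, fell from 22.4 ± 7.38 to 11.6 ± 1.99 CPM with the empty vector (-0.94, SE 0.22, adjusted p = 0.00105), and BACH1, a repressor regulated by heme, rose by 0.71. The drug effect was larger with OE-S100A9 for CEBPA, by 0.50 (SE 0.07, edgeR adjusted p = 0.000966), and CEBPE, by 0.74 (SE 0.16, adjusted p = 0.00779), as for S100A8. For STAT3 it went the other way (-0.22, SE 0.06, adjusted p = 0.0253), and the other 6 factors did not pass. This interaction was called for 19.3% of all genes, and a link of these factors to S100A8 was not tested. With the drug present, OE-S100A9 raised 2 of the 9, CEBPA by 0.22 (edgeR adjusted p = 0.0208) and CEBPE by 0.39 (0.045). Of all genes tested, 8.50% were called in this comparison and 3.69% were called higher. The CEBPA call was lost without empty vector with Adavivint 1 or OE-S100A9 with Adavivint 1 or 2 (adjusted p up to 0.0878), and the CEBPE call without any library of these groups but empty vector with Adavivint 3 (up to 0.164).

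The NADPH oxidase of phagocytes was followed as a complex that calprotectin helps to assemble. In U937 cells 1 of 7 genes was called, against 1.77% of all genes. CYBB, the catalytic subunit gp91phox, fell from 48.0 ± 3.52 to 8.53 ± 4.41 CPM (log2 fold change -2.50, SE 0.42, edgeR adjusted p = 0.0427). The CYBB call held in 1 of 6 fits that each lacked a library, the one lacking shS100A9 3. Its adjusted p rose to 0.168, 0.0655 or 0.175 when empty vector 1, 2 or 3 was left out, and to 0.181 or 0.119 when shS100A9 1 or 2 was. None of the 7 was called with OE-S100A9 (edgeR), where 28.0% of all genes were (median of the 7 -0.10).

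Under Adavivint 5 of the 7 oxidase genes fell with each vector (CYBB, CYBA, NCF1, NCF4 and RAC2) and 2 rose. RAC1, 1 of those that rose, changed by 0.45 with the empty vector and 0.56 with OE-S100A9 on the log2 scale. Of all genes, 41.1% were called lower and 44.2% higher with the empty vector, and 41.3% and 43.4% with OE-S100A9. In either direction 85.3% and 84.7% were called. With the empty vector CYBB fell from 20.3 ± 3.11 to 2.62 ± 0.278 CPM (log2 fold change -2.96, SE 0.14, edgeR adjusted p = 8.42e-11), and its partner CYBA fell by 1.45 on the log2 scale. NCF1, the organizer subunit p47phox, which has near-identical pseudogene copies that can take its reads, fell by 3.11, and RAC2, the small GTPase of the complex, fell by 1.80. In these cells S100A8 and S100A9 rose while the oxidase list had a median log2 fold change of -1.45.

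**Figure D5:**
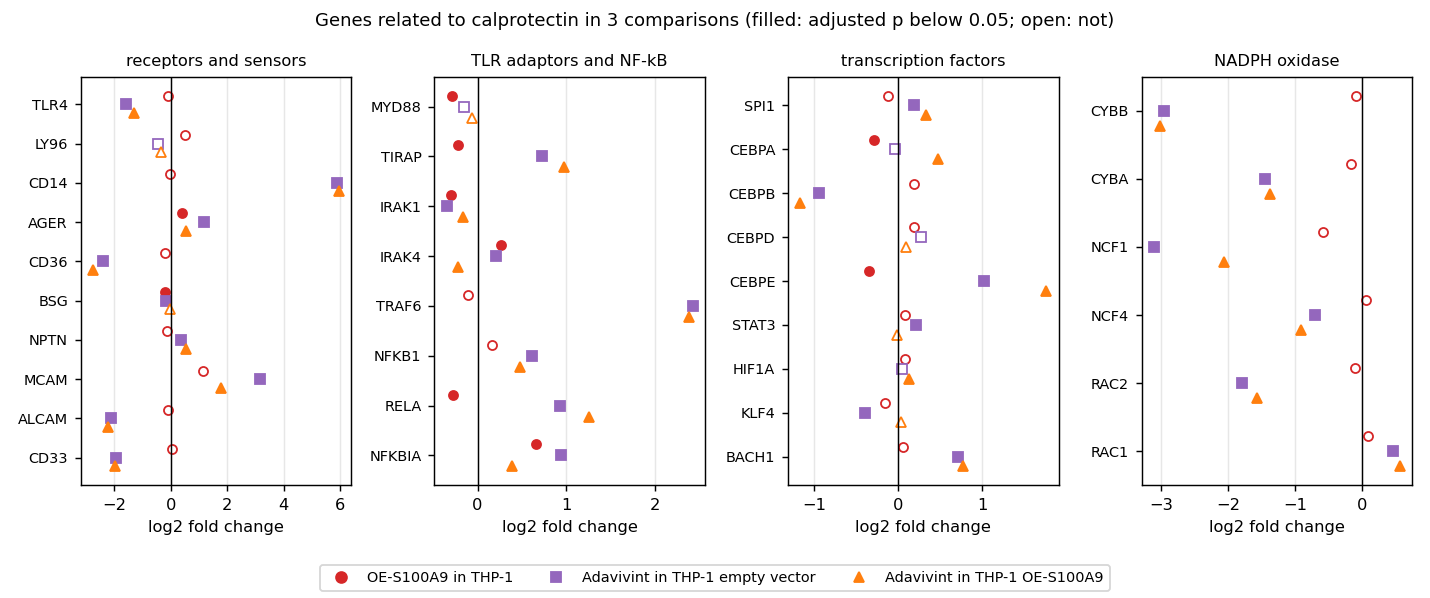
Log2 fold change of tested genes of 4 lists (receptors and sensors, signalling from TLR4 to NF-kB, transcription factors, NADPH oxidase) in OE-S100A9 cells and under Adavivint with each vector; filled symbols have an edgeR adjusted p below 0.05. CD14 lies near 5.87 and TRAF6 near 2.43 under the drug, CYBB near -2.96, and the circles for OE-S100A9 lie closer to 0.

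Markers of other cell types were read beside these changes. In U937 cells the summed level of the 16 monocytic markers was 1060 to 1500 CPM with the empty vector and 857 to 867 with shS100A9. The largest falls were in LYZ, at 417.4 and 179.4 CPM (edgeR adjusted p = 0.124), and ELANE, at 220.9 and 59.6 CPM (0.0214). Of 14 tested, 2 were called lower (ELANE and CD68) and none higher, where 1.77% of all genes were called. CD33 (89.6 and 100.5 CPM), CSF3R, FCN1 and MPO had higher means with shS100A9, without passing. The summed level of 6 neutrophil granule genes was 3.50 to 6.45 and 6.31 to 21.3 CPM. This was mostly MMP9, which was at 3.08 and 14.4 CPM and did not pass the test (edgeR adjusted p = 0.128), while CAMP was at 1.08 and 0.76 CPM. LCN2 was at 0 in both groups, CEACAM8 at 0 in the first and LTF in the second. In THP-1 cells the 5 measured markers of epithelial cells and keratinocytes, which can also express calprotectin, summed to 2.88 to 4.82 CPM with the empty vector and 8.65 to 9.81 CPM with OE-S100A9. KRT17 and KRT14 made nearly all of this sum. KRT17 went from 2.15 ± 0.595 to 6.22 ± 0.405 CPM and KRT14 from 1.36 ± 0.561 to 3.01 ± 0.228 CPM. KRT8 went the other way, from 0.142 to 0.0535 CPM. CDH1 went from 0 to 0.0352 CPM and KRT18 from 0 to 0.0130 CPM. S100A8 was highest in the drug-treated groups with the empty vector and OE-S100A9. There KRT14 was at 0.174 and 0.268 CPM and KRT17 at 5.13 and 6.77 CPM. The summed level of the 5 markers in these groups was 4.80 to 6.03 and 6.45 to 7.86 CPM. The part of these markers in the S100 changes was not tested.

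The genes most like the members in their pattern over the 12 THP-1 libraries were found by Pearson correlation of log2(CPM + 0.5) among 11172 genes, which share libraries, depth and the 4 groups. For S100A8 these were NRBF2 (r = 0.995), OVCA2 (0.994), ERVK3-1 (0.994), RAMAC (0.993) and SNRPB2 (0.993), and 1979 genes had an r above 0.95 with it. For S100A9 no gene passed 0.95, and the closest were RPS3A (0.932), RPS3 (0.923), ATL2 (0.917), ZC3H14 (0.909) and EEF1B2 (0.909). RPS3A rose from 1203 to 1869 CPM between the THP-1 groups where S100A9 was lowest and highest, and NRBF2 from 22.3 to 50.9 CPM between those for S100A8. Over the 6 U937 libraries the r was 0.0793, 0.923, 0.371, 0.977 and 0.944 for the S100A8 genes and -0.302, -0.831, 0.172, -0.939 and -0.836 for the S100A9 genes, in the order given. S100A8 and S100A9 had an r of 0.495 with each other in the THP-1 libraries and of 0.879 in the U937 libraries.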

How the data were processed

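The authors deposited raw read counts by Ensembl identifier, and each column was matched to its sample by the name in the label. Per the submitters' processing notes, HISAT2 2.0.4 was used. Counter, build, annotation and strandedness were not given in the sources used here. Symbols were found for 18642 of the 18670 genes and positions for 18482 (GENCODE 29).

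Counts were tested with edgeR 4.0.16 in R 4.3.3 (TMM, filterByExpr, quasi-likelihood F test, Benjamini-Hochberg adjustment over all genes tested), with 1 fit for the 6 U937 libraries, 1 for the 12 THP-1 libraries and 1 for the untreated controls of both lines. DESeq2 1.42.0 was an alternative. The scripts were tested on simulated data. Ratios used a pseudocount of 0.5 and exact permutation tests over libraries. Ranges of 38.4 to 84.4 M counts limit S100A12, for which 3 counts over a group served as floor.

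The members and lists were chosen with earlier results of these data known. Named genes are the 3 members, up to 4 called genes of each pathway list per comparison by smallest p, and the 5 genes closest in pattern to S100A8 and S100A9 with at least 5 CPM in a group. Other list genes are named to complete a small count or to describe cell types, after their values were seen. A gene of the oxidase list is not reported here by name.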

Additional observations from a re-analysis of the deposited data

Results flagged for a closer look

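The effect of Adavivint differed between the vectors for S100A8, by 1.42 on the log2 scale, by a test of the difference itself (the interaction in edgeR). The same test passed for 10 of the 45 tested genes of the pathway lists, a share near the 19.3% over all genes. The drug effect was higher with OE-S100A9 for CEBPA (0.50), CEBPE (0.74), RELA (0.33), NCF1 (1.04) and S100A4 (0.27). It was lower with OE-S100A9 for AGER (-0.63), IRAK4 (-0.42), NFKBIA (-0.55), STAT3 (-0.22) and S100A1 (-1.78). Leaving out 1 library lost the STAT3 call in 6 of 12 fits, the NCF1 call in 10 and the S100A4 call in 6, with adjusted p values up to 0.0753, 0.123 and 0.0803. Groups of 3 libraries were not tested for an outlying value of a gene.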

How the results depend on the processing

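Replicate numbers did not pair the samples. The deviations of same-numbered libraries from their group means had correlations of 0.245, -0.523 and -0.45 in U937 cells. In THP-1 cells these lay between -0.107 and 0.111. Across numbers the U937 groups did share structure. The libraries that stood apart, empty vector 2 and shS100A9 3, had an r of 0.512. Empty vector 1 and 3 had an r of 0.245 to 0.461 with shS100A9 1 and 2. Between these sets r was -0.523 to -0.308. A factor shared by both groups was not tested. For shS100A9 in U937, a replicate block left 3 called genes in place of 231 and S100A9 had a log2 fold change of -4.94 (adjusted p = 0.169). DESeq2 called 879 genes there, and 4296 were called without both libraries that stood apart, an alternative chosen after seeing the data. Without 1 library at a time, the U937 fit called 18 to 362 genes, OE-S100A9 2735 to 4983, OE-S100A9 in THP-1 under Adavivint 502 to 1174 (main 1309, DESeq2 2026), the interaction 1885 to 3724 and the line comparison 2122 to 6111.

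The S100A9 interaction passed with DESeq2 size factors (0.83, adjusted p = 0.0495) and with a filter of 1 CPM in 3 libraries (0.81, adjusted p = 0.0481), and ran from 0.42 to 1.07 without 1 library. In a fit of the 6 libraries compared, S100A8 in OE-S100A9 cells did not pass (-1.02, adjusted p = 0.0721). Without 1 library, S100A9 in U937 cells ran from -5.54 to -4.30, S100A8 in OE-S100A9 cells from -1.51 to -0.72 and the S100A8 interaction from 1.15 to 1.94. The S100A9 difference between lines ran from -0.32 to 0.30 and reversed without U937 empty vector 2 (0.11) or THP-1 empty vector 1 (0.30). The drug difference of S100A12 ran from -0.0026 to 0.0528 CPM. The cause of these changes was not tested. Of the fits of named pathway genes under alternatives, 978 kept and 75 lost the call. With 5 to 36 counts per U937 library, depth limits S100A8.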
